A study of Mus musculus with 14 samples.

Results

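The serpins are a family of serine protease inhibitors, and their genes were followed here in the liver of mice under a compression load to the trunk. Members were all probe sets whose gene symbol on the array platform begins with Serpin, with the probe set of highest mean kept for each gene. This gave 55 genes with 1 probe set each, of 22206 probe sets on the array that are not controls. Livers came from 14 male C57BL/6N mice, 1 array per mouse. The mice were 10 weeks old when purchased and were then acclimated to cages, clothes and chambers before the load. The 7 mice of the compression group wore clothes tightened until the waist was 10% smaller, and the 7 mice of the no-compression group wore the same kind of clothes without the load. Livers were taken after 8 hours, and all mice wore clothes. Feeding and body weight were not analysed here, and an effect of feeding cannot be told apart from one of the load. The values are log2 expression values in which the authors had condensed the probes of each probe set.

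An inhibitory serpin presents a reactive loop to a protease, is cut by it, and then traps the enzyme by folding the cut loop into its own body. Most serpins of blood plasma are secreted by hepatocytes and restrain coagulation, fibrinolysis, complement and the proteases of leukocytes. Some members have lost the inhibitory function and carry hormones or help other proteins to fold. The family is divided into clades named by letters, of which clade A holds the antitrypsin-like secreted serpins and clade B the serpins that stay within cells.

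The array carries control rows for background, and the 23 of them had means between 4.82 and 7.60 over the 14 arrays. A Serpin gene was called above background when its mean passed all of them. This held for 15 of 55 genes (27.3%), and for 6069 of 22206 probe sets (27.3%). Probe sets differ in how well they bind, so a value shows where a probe set stands against the background rows and not how much mRNA one gene has compared with another. RNA was taken from whole liver, in which fewer cells of a type and less RNA per cell cannot be told apart.

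The antitrypsin genes of clade A lay far above background. Serpina1a, Serpina1b, Serpina1c, Serpina1d and Serpina1e encode the mouse copies of alpha-1 antitrypsin, the plasma inhibitor of neutrophil elastase, and had mean log2 values of 13.17, 12.78, 13.02, 12.72 and 13.22. Serpina1f, the remaining copy on the array, was within the background range with 5.44. Other members of the clade above background were Serpina3n, a secreted inhibitor related to human alpha-1 antichymotrypsin (12.17), and Serpina10, which inhibits coagulation factor Xa together with protein Z (10.57). Serpina6 (9.81) and Serpina7 (8.52) were above background as well, and they encode the plasma carriers of corticosteroids and of thyroxine. Serpina11 had a mean of 9.01. In all, 10 of the 20 genes of clade A were above background. Serpina12, which encodes the adipokine vaspin, was within the background range with 7.15, as were Serpina5, an inhibitor of protein C (6.10), and the 5 other Serpina3 genes named on the platform, between 5.67 and 7.34. The protein-coding genes Serpina3c, Serpina3g, Serpina3k and Serpina3m had no named probe set, so their signal in these livers is not known.

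Every gene of clades C, D, F and G on the array was above background. Serpinc1, antithrombin, had a mean of 12.40, Serpind1, heparin cofactor II, 12.03, and Serping1, the inhibitor of complement C1, 12.46. Serpinf2, the main inhibitor of plasmin, had 11.68, and Serpinf1, a secreted factor with effects on vessels and neurons, 10.68. No gene of the intracellular clade B was above background, with means between 4.99 and 7.06 over 26 genes, 11 on chromosome 1 and 15 on chromosome 13. They included Serpinb9, an inhibitor of granzyme B (7.06), Serpinb6a (6.87) and Serpinb1a, which inhibits neutrophil elastase (6.48). Serpinh1, the collagen chaperone of the endoplasmic reticulum, had 6.42, Serpini1, the neuroserpin of the brain, 6.02, Serpine3 5.46 and Serpini2 5.36. Serpine3 was the 1 gene of clade E with a named probe set, so other genes of that clade were not measured.

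**Figure D1:**
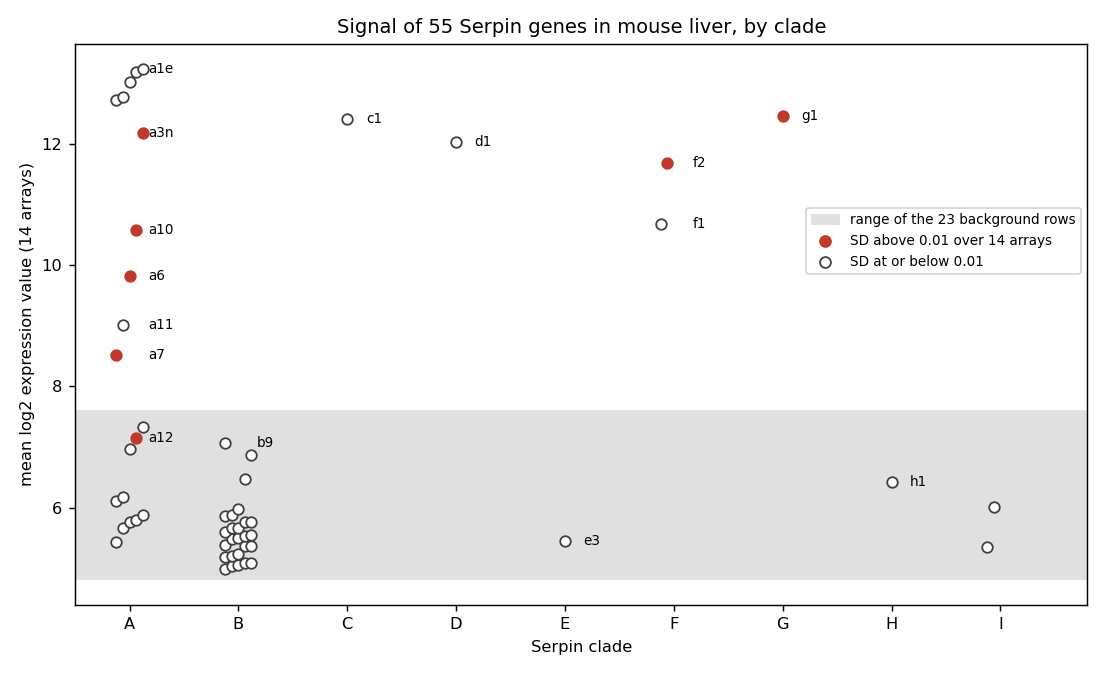
Mean log2 expression value over the 14 arrays (y axis) of each of the 55 Serpin genes, grouped by clade (x axis, with a small sideways shift so that points stay apart). Filled points have an SD above 0.01 and open points do not. The grey band is the range of the 23 background rows, 4.82 to 7.60, and 15 genes lie above it.

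Cell type markers on the same arrays gave the setting of these levels. All 8 measured hepatocyte markers were above background, and their mean level lay between 12.88 and 12.91 in the compression group and between 12.88 and 12.90 in the no-compression group. Of the other cell types, 5 of 8 endothelial, 5 of 8 Kupffer cell and 3 of 8 stellate cell markers were above background. None of 7 neutrophil, 8 T and NK cell, 4 B cell, 5 cholangiocyte and 4 mesothelial markers was.

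The summary of the probes leaves most probe sets of this table almost constant between arrays, with a median SD of 1.04e-05, and a gene that is constant here gives no information on a change. Serpin genes were therefore divided by an SD of 0.01 over the 14 arrays, and those beyond it are called genes with spread. They were 7 of 55 (12.7%), against 1238 of 22206 probe sets (5.58%). Among genes above background they were 6 of 15 (40%), against 1115 of 6069 probe sets (18.4%). These shares are a description without a test. The 7 genes were Serpina10 (SD 0.393), Serpina7 (0.357), Serpina12 (0.279), Serpina3n (0.207), Serpina6 (0.112), Serpinf2 (0.0603) and Serping1 (0.0601). No Serpin gene lay close above the limit, and the nearest below it were Serpina1e with 0.00506 and Serpinf1 with 0.00058. The other 46 genes had SDs of about 1.04e-05, and their group means differed by at most 1.27e-05. The antitrypsin copies Serpina1a to Serpina1d, Serpinc1, Serpind1 and Serpina11 are among them, so 9 of the 15 genes above background, Serpina1e and Serpinf1 included, had no spread.

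**Figure D2:**
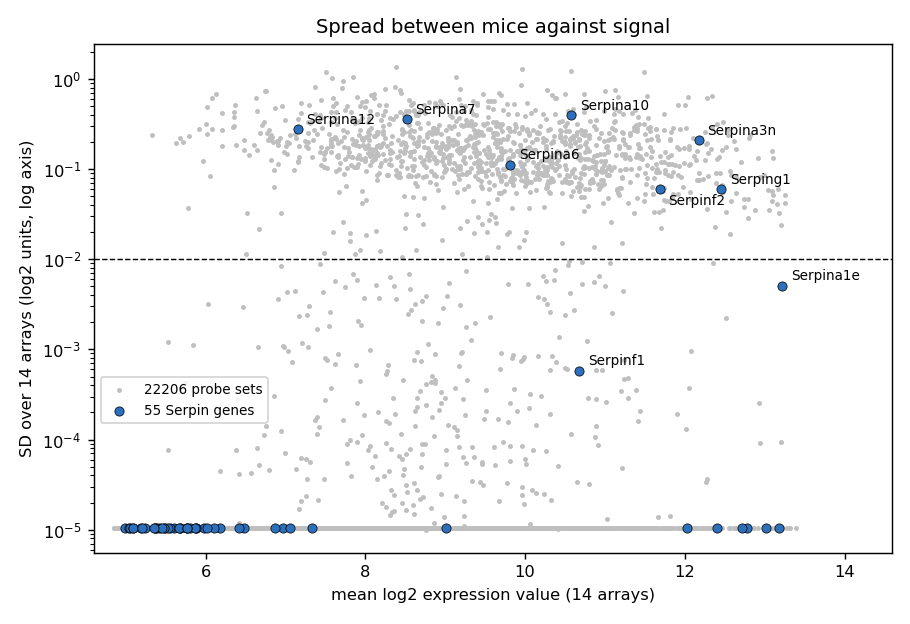
SD over the 14 arrays in log2 units (y axis, log scale) against the mean log2 expression value (x axis). Grey points are all 22206 probe sets and blue points the 55 Serpin genes, and the dashed line is the limit of 0.01. The line of points near 1.04e-05 holds the 46 genes that are constant between arrays, and 7 blue points lie above the limit.

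Genes with spread were found on several chromosomes. In the RefSeq annotation of mouse assembly GRCm38.p6, 28 Serpin genes lie in a row on chromosome 12 with 0 other protein-coding genes between the first and the last. Of these, 19 were measured here, and the genes with spread were the first in the row (Serpina10), the second (Serpina6), the 12th (Serpina12) and the 28th (Serpina3n). The 5 antitrypsin copies at high signal and without spread lie between Serpina6 and Serpina12. Serpina7 is on chromosome X, Serpinf2 on chromosome 11 and Serping1 on chromosome 2.

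The promoters of the antitrypsin copies are shown because these 5 genes were all far above background and their promoter windows are nearly the same. Transcript and probe sequences were not compared, so whether probes of one copy also bind another was not tested. The stretches are from RefSeq, assembly GRCm38.p6, all on the minus strand of chromosome 12, and are written 5′ to 3′ with capitals for the motifs TGTTTGC (bound by forkhead factors) and GTTAAT (part of the site of HNF1), which were found in that order in each. They lie at chr12:103863601-103863700 for Serpina1a, chr12:103738176-103738275 for Serpina1b, chr12:103904938-103905037 for Serpina1c, chr12:103773610-103773709 for Serpina1d and chr12:103956936-103957035 for Serpina1e.
Serpina1a: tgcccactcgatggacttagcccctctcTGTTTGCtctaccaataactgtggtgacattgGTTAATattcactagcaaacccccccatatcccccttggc
Serpina1b: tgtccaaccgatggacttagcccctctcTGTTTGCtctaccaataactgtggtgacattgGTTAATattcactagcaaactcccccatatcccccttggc
Serpina1c: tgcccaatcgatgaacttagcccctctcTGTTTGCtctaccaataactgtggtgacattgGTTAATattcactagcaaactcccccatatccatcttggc
Serpina1d: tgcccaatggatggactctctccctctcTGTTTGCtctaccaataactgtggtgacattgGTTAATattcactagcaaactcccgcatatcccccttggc
Serpina1e: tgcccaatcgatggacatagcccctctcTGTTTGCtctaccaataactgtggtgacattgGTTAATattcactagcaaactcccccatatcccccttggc
Pairs of these windows were identical at 91 to 97 of 100 bases. All 5 copies shared 86 bases, and the longest run without a difference was 59 bases. GTTAAT began 21, 26, 27, 16 and 78 bases before the annotated start in Serpina1a to Serpina1e, so the annotated start of Serpina1e lies further downstream.

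Of the 7 genes with spread, 4 had a promoter in the RefSeq table. Those of the 3 with the larger SDs are printed because these genes have the largest group differences or SDs among the 4. Each window holds 250 bases before the annotated start and 50 after it, on the strand of the gene, with any motif found in capitals. Serpina7 is at chrX:139085187-139085486 (minus strand, the first of its listed starts), Serpina12 at chr12:104044394-104044693 (minus strand) and Serpina3n at chr12:104406458-104406757 (plus strand).
Serpina7: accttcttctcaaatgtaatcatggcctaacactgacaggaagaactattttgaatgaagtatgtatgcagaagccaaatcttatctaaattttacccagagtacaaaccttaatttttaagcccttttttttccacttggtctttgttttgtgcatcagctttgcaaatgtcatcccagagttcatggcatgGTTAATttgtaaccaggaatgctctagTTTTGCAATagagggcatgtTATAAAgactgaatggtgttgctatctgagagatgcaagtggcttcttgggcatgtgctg
Serpina12: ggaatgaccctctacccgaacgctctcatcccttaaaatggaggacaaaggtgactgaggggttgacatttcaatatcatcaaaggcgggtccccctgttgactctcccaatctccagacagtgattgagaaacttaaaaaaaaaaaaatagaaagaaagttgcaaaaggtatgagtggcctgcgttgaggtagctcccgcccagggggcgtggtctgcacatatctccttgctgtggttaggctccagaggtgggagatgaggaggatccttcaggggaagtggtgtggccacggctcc
Serpina3n: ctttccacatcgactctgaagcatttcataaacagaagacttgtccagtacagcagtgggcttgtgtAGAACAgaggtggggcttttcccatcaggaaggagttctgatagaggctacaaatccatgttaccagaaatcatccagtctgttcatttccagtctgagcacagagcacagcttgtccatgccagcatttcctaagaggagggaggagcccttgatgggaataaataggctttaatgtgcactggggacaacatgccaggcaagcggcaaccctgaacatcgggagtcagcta
The motifs searched on both strands were GTTAAT (HNF1), TGTTTGC (forkhead factors), TTCNNNGAA (STAT factors), TTNNGCAAT (C/EBP factors), AGAACA (part of the glucocorticoid receptor site) and TATAAA. They are held by 7.1%, 5.07%, 8.3%, 2.18%, 19.0% and 13.6% of 32851 RefSeq promoter windows of 300 bases, and by 9, 9, 7, 4, 23 and 12 of the 49 Serpin genes with a window. No match printed overlapped another. The Serpina7 window held GTTAAT at 57, TTNNGCAAT at 30 and TATAAA at 10 bases before the start. The Serpina3n window held AGAACA at 183 bases before the start, that of Serpinf2 held it 1 base after the start, and that of Serpina12 held none of the 6 motifs. A match is a match of letters and was not tested for binding.

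Compression and no-compression livers were compared with limma over all 22206 probe sets. No Serpin gene passed an adjusted p of 0.05, where 0% of all probe sets did. At an unadjusted p under 0.05 there were 4 of 55 Serpin genes, against 5.19% of all probe sets, and none of the 4 had spread. Rank products, the method of the study with an FDR limit of 0.01, called 2 Serpin genes higher with compression (Serpina12 and Serpinf1), where 1.31% of probe sets were called, and 3 lower (Serpina10, Serpina7 and Serpina1e), where 1.2% were. Of the 548 probe sets that rank products called in either direction, 535 (97.6%) had spread. Of the 1238 probe sets with spread, rank products called 284 higher (22.9%) and 260 lower (21.0%), in all 535 (43.2%), and of the 7 Serpin genes with spread it called 1 higher and 2 lower (42.9% in all), a share near that of all probe sets with spread. The arrays of the groups overlapped for all 7 genes, as they did for all 1238 probe sets with spread.

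Serpina10 had the widest spread of the family and the lower mean in the compression group. Its log2 values in compression replicates 1 to 7 were 10.546, 10.463, 10.400, 10.409, 10.237, 10.320 and 10.625. In no-compression replicates 1 to 7 they were 10.003, 10.365, 11.263, 10.344, 10.595, 11.367 and 11.054. The 3 highest arrays were no-compression replicates 6, 3 and 7 and the lowest was no-compression replicate 1, so the compression arrays lay inside the range of the other group. The mean was 10.43 ± 0.13 in the compression group and 10.71 ± 0.52 in the no-compression group (SD, n = 7 each), a log2 difference of −0.28 with a 95% interval of −0.72 to 0.15 (limma adjusted p = 0.960, exact permutation p = 0.181, two-sided). Rank products gave an FDR of 0.00224. The difference was −0.18 without no-compression replicate 6 and −0.40 without no-compression replicate 1 (limma adjusted p = 0.862).

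Serpina7 was also lower on average with compression. Its values in compression replicates 1 to 7 were 8.47, 8.49, 8.79, 8.35, 8.32, 8.46 and 8.14. In no-compression replicates 1 to 7 they were 8.03, 8.05, 8.56, 9.02, 8.92, 9.20 and 8.42. Both the 3 highest arrays (no-compression replicates 6, 4 and 5) and the 2 lowest (no-compression replicates 1 and 2) were of the no-compression group, and the groups overlapped. With means of 8.43 ± 0.20 and 8.60 ± 0.47 (SD, n = 7 each), the log2 difference was −0.17 with a 95% interval of −0.58 to 0.24 (limma adjusted p = 0.979, exact permutation p = 0.392, two-sided). The FDR of rank products was 0.00143. The carrier of corticosteroids, Serpina6, varied less. It ranged from 9.67 over a median of 9.82 to 9.89 with compression and from 9.64 over 9.80 to 10.10 without, with the highest value in no-compression replicate 7, and the log2 difference was −0.02 with a 95% interval of −0.16 to 0.11 (limma adjusted p = 0.992, exact permutation p = 0.711, two-sided).

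Serpina12 was the 1 gene with spread that was lower in no-compression replicates 3, 6 and 7 than in all other arrays but 1. Compression replicates 1 to 7 had values of 7.23, 7.29, 7.37, 6.77, 7.51, 7.26 and 7.25. No-compression replicates 1 to 7 had 7.20, 7.31, 6.80, 7.33, 7.39, 6.73 and 6.68. The values fell into a lower cluster of 4 arrays, no-compression replicates 7, 6 and 3 and compression replicate 4, and a higher one of the 10 other arrays, with both groups in each. The means were 7.24 ± 0.23 with compression and 7.06 ± 0.31 without (SD, n = 7 each), a log2 difference of 0.18 with a 95% interval of −0.14 to 0.49 (limma adjusted p = 0.970, exact permutation p = 0.268, two-sided). Rank products gave an FDR of 0.00853. All 14 values lay within the range of the background rows.

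Serpina3n rises in mouse liver in the acute phase response, and its group means were nearly equal here. Its values in compression replicates 1 to 7 were 12.30, 12.21, 12.17, 12.15, 12.09, 12.06 and 12.22. Those in no-compression replicates 1 to 7 were 11.68, 12.14, 12.39, 12.07, 12.12, 12.64 and 12.20. The 2 highest arrays and the lowest were of the no-compression group, which enclosed the other. The log2 difference was −0.01 with a 95% interval of −0.25 to 0.24 (limma adjusted p = 0.996, exact permutation p = 0.946, two-sided), while the SD was 0.29 without compression and 0.08 with it.

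Serpinf2 and Serping1, which restrain plasmin and the first step of complement, had narrow ranges. Serpinf2 went from 11.63 over a median of 11.66 to 11.77 with compression and from 11.59 over 11.69 to 11.79 without. Its log2 difference was −0.01 with a 95% interval of −0.08 to 0.06 (limma adjusted p = 0.995, exact permutation p = 0.749, two-sided). Serping1 went from 12.41 over 12.44 to 12.55 with compression and from 12.35 over 12.44 to 12.57 without, a log2 difference of 0.00 with a 95% interval of −0.07 to 0.07 (limma adjusted p = 0.996, exact permutation p = 0.928, two-sided). In both genes no-compression replicate 1 was the lowest array, and the groups overlapped. For these 2 genes the intervals leave out differences above 0.10 in the deposited log2 values in either direction. The summary of the probes can shrink values, so these intervals do not bound a difference in mRNA.

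**Figure D3:**
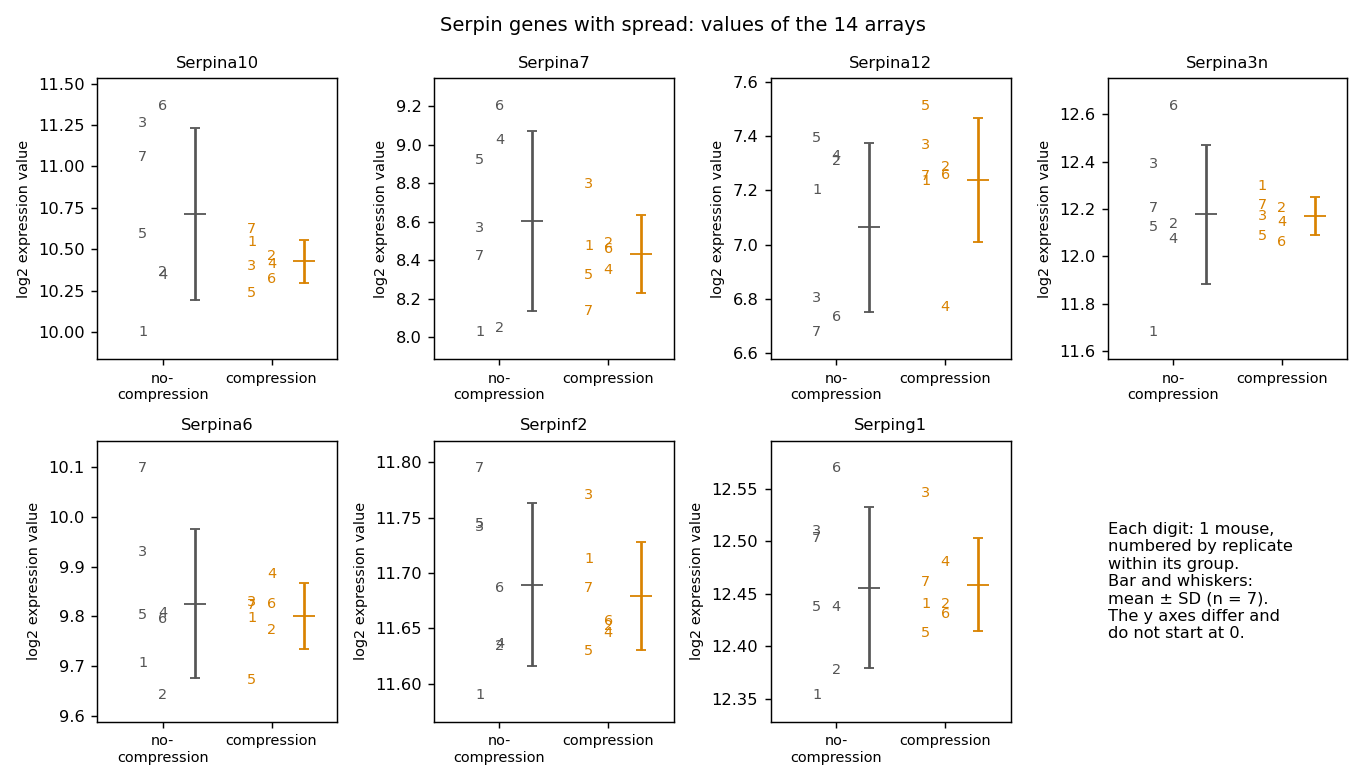
Log2 expression values (y axes, which differ between panels and do not start at 0) of the 7 Serpin genes with spread in the no-compression and compression groups (x axis). Each digit is 1 mouse and gives its replicate number, and bars with whiskers are mean ± SD (n = 7). Serpina10 runs from 10.003 to 11.367 without compression and from 10.237 to 10.625 with it, and in each panel the groups overlap.

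Serpina1e and Serpinf1 were called by rank products although they were almost constant. Serpina1e lay between 13.21 and 13.23 in all 14 arrays, with a difference of −0.0046 on the log2 scale (limma adjusted p = 0.943, FDR of rank products 0.0073). Serpinf1 differed by 0.00076 (limma adjusted p = 0.943, FDR of rank products 0.00156). Its values lay between 10.6808 and 10.6818 with compression and between 10.6794 and 10.6810 without. Rank products uses the order of the fold changes, in which such differences still rank ahead of the many probe sets at 1e-05. The unadjusted limma p was 0.00637 for Serpinf1 and 0.0788 for Serpina1e. Besides Serpinf1, the genes with an unadjusted p under 0.05 were Serpine3, Serpinb9f and Serpinh1, with differences no larger than 1.27e-05 and means within the background range.

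All 7 genes with spread had the larger SD in the no-compression group. The ratio of the SDs, no-compression over compression, was 3.96 for Serpina10, 3.65 for Serpina3n, 2.32 for Serpina7, 2.25 for Serpina6, 1.73 for Serping1, 1.51 for Serpinf2 and 1.37 for Serpina12. The same held for 822 of the 1238 probe sets with spread (66.4%). Of the 7 genes, 2 were higher and 5 lower on average with compression, with a median log2 difference of −0.01, against 640 of 1238 lower (51.7%) and a median of 0.00 over all probe sets with spread.

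The arrays at the ends of these ranges can be set beside the rest of the table. A principal component analysis was run on the 1231 non-Serpin probe sets with spread. On its first axis, with 57.1% of the variance, no-compression replicates 6, 3 and 7 had values of 16.7, 9.54 and 9.43. The other 11 arrays lay between −6.69 and 2.26, with compression replicate 4 at the upper end and no-compression replicate 1 at the lower. Among the Serpin genes, the same arrays often came first or last. No-compression replicate 1 was the lowest of 14 arrays for Serpina10, Serpina3n, Serpina7, Serpinf2 and Serping1. No-compression replicate 6 was the highest for Serpina10, Serpina3n, Serpina7 and Serping1, and no-compression replicate 7 for Serpina6 and Serpinf2. For Serpina12, the 4 lowest arrays were the 4 with a value above 0 on this axis. What sets these mice apart was not tested.

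**Figure D4:**
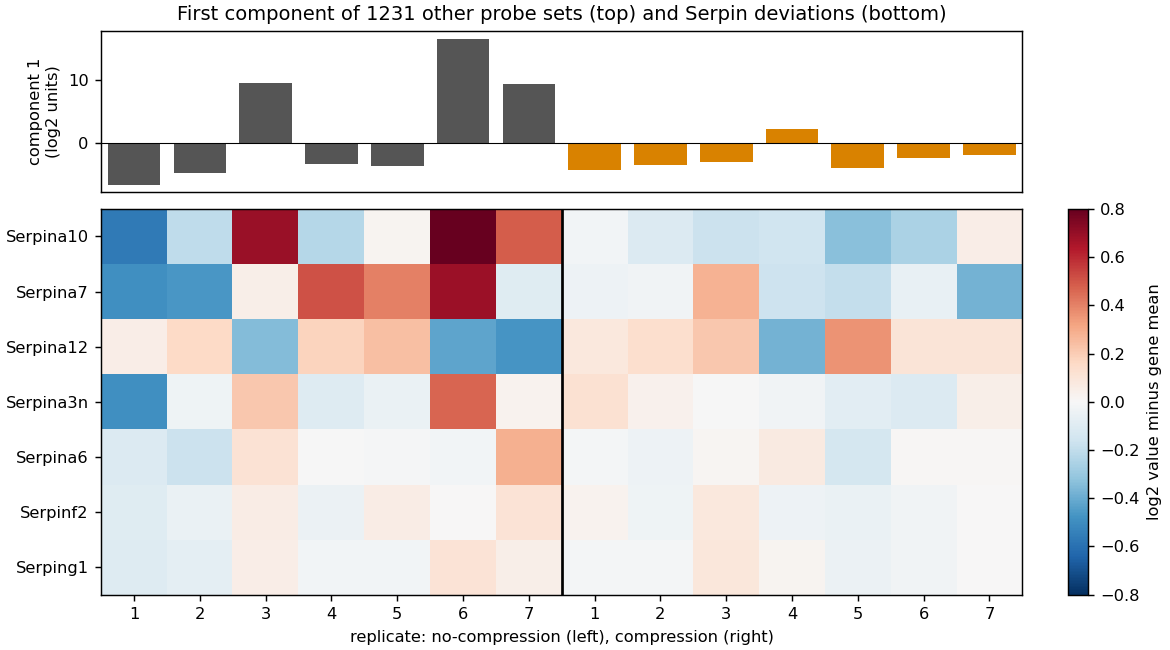
Top, value of each array (x axis, replicates of the no-compression group on the left and of the compression group on the right) on the leading principal component of 1231 other probe sets. Bottom, log2 value minus the gene's mean over 14 arrays for the 7 Serpin genes with spread (colour scale, log2 units). No-compression replicates 3, 6 and 7 stand out in the bars at 9.54, 16.7 and 9.43, and Serpina12 is below its mean in them and in compression replicate 4.

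Differences were computed again without no-compression replicates 3, 6 and 7. The log2 difference of Serpina10 was then 0.10 in place of −0.28, that of Serpina12 −0.07 in place of 0.18 and that of Serpina3n 0.17 in place of −0.01. Serpina6 came to 0.06, Serpinf2 to 0.03 and Serping1 to 0.06, and Serpina7 to −0.07 in place of −0.17. The direction thus turned in 5 of the 7 genes, Serpina7 and Serping1 being the exceptions. The arrays left out had the highest values on the first axis above and were chosen with earlier results of these data known. They were taken from the no-compression group only, and compression replicate 4 was kept. The choice itself can turn the direction of genes that vary along that axis, so these turns are a description and not a test. With 4 arrays left in the no-compression group, no Serpin gene passed an adjusted p of 0.05 in limma, and the lowest adjusted p among the 7 was 0.982.

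**Figure D5:**
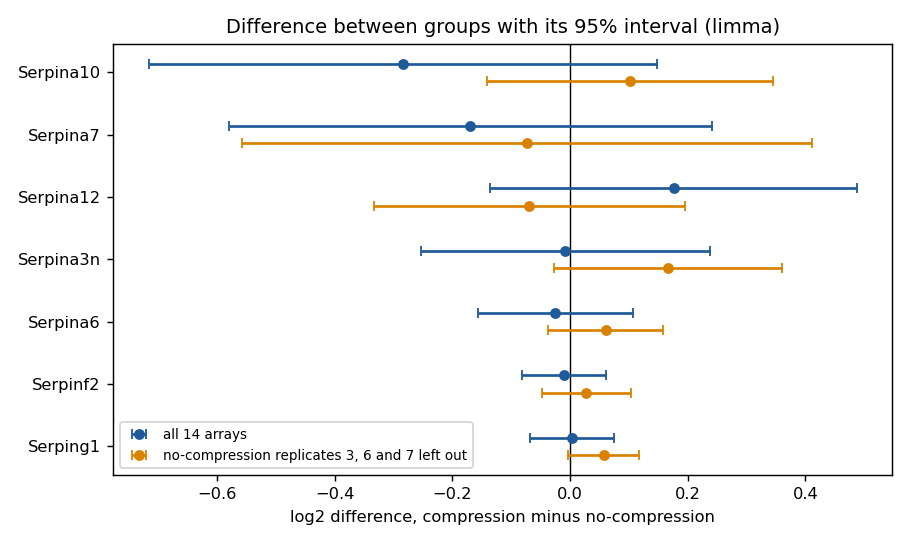
Log2 difference of compression minus no-compression (x axis) for the 7 Serpin genes with spread, with the 95% interval from limma, over all 14 arrays (blue) and without no-compression replicates 3, 6 and 7 (orange). Every blue and orange interval crosses 0, and the point of Serpina10 moves from −0.28 to 0.10.

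The enzymes that serpins inhibit, their cofactors and genes of the same plasma pathways were read from lists on the same arrays, and limma called none of their members. Each difference below is the log2 mean of compression minus no-compression, followed by its value without no-compression replicates 3, 6 and 7, since many directions turned without them. Genes of a list can vary together along the first axis, so the tallies of directions are a description and not a result about a list. On the list of coagulation proteases, which also held the cofactor gene F3, 3 of 8 measured genes had spread. F11 had a difference of 0.05 (−0.01 without these arrays), Proc, the gene of protein C, of 0.09 (0.01) and F9 of 0.00 (0.01). Hgfac, an activator of hepatocyte growth factor, was the 1 of 4 proteases on the fibrinolysis list with spread (0.14, then −0.07), and Cfb, factor B, the 1 of 9 on the complement list (−0.04, then 0.01). Of 10 proteases of neutrophils, mast cells and lysosomes only the lysosomal cathepsins Ctsl (−0.14, then 0.18) and Ctsb (−0.03, then 0.02) had spread, and both turned. On a list of 20 other protease inhibitors and associated proteins 9 genes had spread. Of these, 1 had a higher and 8 a lower mean, and without the 3 arrays this became 7 higher and 2 lower. The inter-alpha-trypsin inhibitor heavy chain genes Itih3 (−0.03, then 0.25), Itih4 (−0.04, then 0.17) and Itih2 (−0.13, then 0.09) were among those that turned.

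On the list of cofactors and clearance receptors 5 of 12 members had spread. Of these, 3 had a higher and 2 a lower mean, which became 2 higher and 3 lower without the same arrays. The heparan sulfate proteoglycan Sdc1 was at 10.58 ± 0.23 with compression and 10.90 ± 0.54 without (SD, n = 7 each), a difference of −0.32 (0.10 without these arrays). The list also held Mttp, which is not a cofactor or receptor of serpins. The differences were 0.09 for Mttp (then −0.01) and 0.06 for Asgr2 (then 0.00). A list of carriers and enzymes of hormones and other plasma ligands had 5 of 12 with spread, 4 with a higher mean, and without these arrays all 5 were lower. Igfbp1 and Igfbp2, which bind insulin-like growth factors, had differences of −0.33 (then −0.03) and 0.15 (then −0.17). Dio1, which converts thyroxine, the ligand of Serpina7, to its active form, had 0.38 (then −0.04). Hsd11b1, which regenerates corticosterone, the ligand of Serpina6, had 0.14 (then −0.03).

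Acute phase genes, to which Serpina3n belongs by its known regulation, had spread in 20 of 22 cases, 6 with a higher and 14 with a lower mean. Without no-compression replicates 3, 6 and 7 this tally turned to 19 higher and 1 lower. Of all probe sets with spread, 51.7% had a lower mean over the 14 arrays, and their share without these replicates is not given. The serum amyloid A genes Saa2 (0.62, then 1.74) and Saa1 (0.39, then 1.05) were higher in both cases, and Apcs, serum amyloid P, turned (−0.34, then 0.32). Of 19 measured genes that handle misfolded secreted proteins 11 had spread, 1 with a higher and 10 with a lower mean, and all 11 were lower without these arrays. Hyou1 (−0.28, then −0.25), Sdf2l1 (−0.30, then −0.15) and Creld2 (−0.18, then −0.12) belong to the folding machinery of the endoplasmic reticulum.

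Hepatocyte transcription factors had 5 of 12 with spread, 4 with a higher mean, and 3 without these arrays. They included Onecut1 (0.09, then 0.26), the forkhead factor gene Foxa1 (0.17, then −0.02) and Nr1h4, the bile acid receptor (0.23, then 0.10). Genes of the growth hormone response had 9 of 12 with spread, 7 with a higher and 2 with a lower mean, which became 3 and 6 without these arrays. Hsd3b5 turned (0.66, then −0.60), while Bcl6, a repressor, kept a lower mean (−0.21, then −0.53) and Cish a higher one (0.31, then 0.29). Collagen genes and their handling had 1 of 12 (P4hb, 0.00, then 0.01).

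Markers of other cells varied as follows. The 3 neutrophil markers with spread all had lower means with compression, with differences of −0.21 for Retnlg, −0.19 for S100a8 and −0.03 for S100a9, and all 3 differences were above 0 without no-compression replicates 3, 6 and 7 (0.03, 0.00 and 0.05). The mean level of the 7 neutrophil markers lay between 5.98 and 6.06 with compression and between 5.97 and 6.23 without, within the range of the background rows. Kupffer cell markers had a mean level between 8.14 and 8.25 with compression and between 8.16 and 8.34 without, with 3 of 8 with spread. T and NK cell, B cell, cholangiocyte and mesothelial markers had no spread. The part of these cells in the Serpin values was not tested.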

How the data were processed

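The authors deposited log2 expression values, 1 for each array and probe set, made with qFarms in R 3.4.4 (submitters' processing notes) by quantile normalization and factor analysis of the probes of Clariom S arrays hybridized with 200 ng of RNA. Where the probes of a set do not move together, the factor analysis shrinks its values to a near constant, which cannot be undone from the table. The array medians lay between 6.51 and 6.52. The number of arrays limits the precision, and p-values measure the spread between these mice.

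Of 29129 rows, 6923 control rows were left out. The platform annotation gave 1 gene for 19572 of 22206 probe sets (88.1%) and none for 2634. RefSeq names 63 protein-coding Serpin genes, of which 8 have no named probe set and are not analysed here. Groups were taken from the labels and tested by lmFit and eBayes of limma 3.58.1 (R 4.3.3), with p-values adjusted by Benjamini and Hochberg over all 22206 probe sets and a limit of 0.05, with an exact permutation test of the difference of means for the 7 genes with spread, unadjusted, and with rank products (FDR 0.01). Rank products was written anew in Python 3.11.15 (pandas 2.3.3, scipy 1.17.1, numpy 2.4.6), as the median over 49 random pairings, and the RankProd package was not run. The scripts were tested on simulated data. For rank products the simulation gave all probe sets the same SD, unlike the values here, so it does not test the FDR values given. Figures were drawn with matplotlib 3.10.9.

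The Serpin genes, the lists of related genes and the alternative without no-compression replicates 3, 6 and 7 were chosen with earlier results of these data known. The text names every Serpin gene with an SD above 0.01, those just below it, the genes with the highest means of each clade, and the 3 members of each list with the largest SD (fewer where fewer had spread, and for cell types only where differences are given). Other genes, such as Serpina5, Serpini2, Serpinb9f and Hsd11b1, were named after their values were seen. Promoters were matched by Entrez gene ID for 49 of 55 genes (RefSeq, GRCm38.p6).

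Alternatives were quantile normalization, median centring, a filter on low values, genes with spread only, other settings of limma, other SD limits, a block for the replicate number, and each array left out in turn. Each Serpin gene has 1 probe set, so another choice of probe set gave no other value. Other limits on background were added after seeing the data. Same-numbered arrays did not deviate together (correlations from −0.49 to 0.34).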

Additional observations from a re-analysis of the deposited data

Results flagged for a closer look

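Serpina12 in compression replicate 4 lay apart from the 6 other compression arrays. Its log2 value was 6.77, and the nearest compression array was at 7.23. This gap was 0.623 of the range of the group, above the limit of Dixon's test at 95%. The test was run on 18 groups of 7 arrays, both groups of 9 Serpin genes, and chance gives about 1 such array in 20 groups. In the no-compression group replicates 3, 6 and 7 had values of 6.80, 6.73 and 6.68, near that of compression replicate 4. Without compression replicate 4 the log2 difference of Serpina12 was 0.25 in place of 0.18.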

How the results depend on the processing

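No Serpin gene and no probe set passed limma's adjusted p of 0.05 under any of the 22 settings, in which the adjusted p of Serpina10 ranged from 0.360 to 0.999. Rank products called 5 Serpin genes. The number of Serpin genes with an unadjusted p under 0.05 was 4 of 55, against 5.19% of all probe sets. It was 1 of 55 under quantile normalization and 1 of the 20 Serpin genes above the median mean. It was 0 of 55 under median centring, 0 of the 7 genes with spread only, and 3 to 6 of 55 when an array was left out. The shares of all probe sets under these settings are not given. Under quantile normalization 13 in place of 7 Serpin genes had spread. The share of all probe sets with spread after that step is not given, so the rise cannot be read as particular to the family. With the replicate block the count of unadjusted calls was 3 and the adjusted p of Serpina10 was 0.940. Same-numbered arrays correlated best with each other in 1 of 7 cases. The labels do not say whether the numbers pair mice, and these correlations cannot decide it.

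Without no-compression replicates 3, 6 and 7 the median log2 difference of the genes with spread was 0.0571 in place of −0.01, and those of Serpina10, Serpina12, Serpina3n, Serpina6 and Serpinf2 turned to 0.10, −0.0689, 0.17, 0.0606 and 0.028. Leaving out 1 array gave medians from −0.04 to 0.01. Serpina10 then ranged from −0.40 to −0.18, Serpina7 from −0.26 to −0.07, Serpina12 from 0.11 to 0.25, Serpina3n from −0.0904 to 0.069, Serpina6 from −0.0554 to 0.0202, Serpinf2 from −0.0271 to 0.007 and Serping1 from −0.0137 to 0.0222. The last 4 changed direction in 4, 1, 1 and 4 of 14 cases. The causes were not tested. By limits of the median and the 75th percentile of all probe sets, chosen after seeing the data, 20 and 15 Serpin genes were above background.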
